A study of Mus musculus with 12 samples.

Results

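The genes described here encode the machinery that loads, docks, fuses and recovers synaptic vesicles, measured in primary cultures of neurons from the mouse trigeminal ganglion (TG), the cranial ganglion that carries touch, pain and temperature from the head. The members were 35 genes taken by symbol from a list written for this work, and all 35 had a probe among the 19572 probes with 1 gene name, out of 22206 on the array. No measured value entered their choice by rule, but results of these data were known when the list was written. The cultures, plated on coverslips coated with laminin, had been transfected with miR-21, with miR-34a, with miR-324 or with a scramble miRNA as the control. Their RNA was read on Clariom S Mouse arrays, 3 in each of the 4 groups and 12 in all. The labels name no strain, age, dose or time after transfection, and nothing in them ties the 3 arrays of a group to different animals or dishes, so each p-value measures only the spread between these arrays, which may be technical. Transfection and plating were common to all 4 groups, scramble included, and no untransfected culture was analysed here.

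At a synapse, a neurotransmitter-filled vesicle is brought to the active zone by scaffold and priming proteins, and a SNARE complex of vesicle VAMP with plasma membrane syntaxin and SNAP-25 then pulls the membranes together. Synaptotagmins sense the entering calcium and complexins clamp and help the SNAREs, so that fusion follows an action potential, after which NSF and SNAP adaptors take the spent complexes apart and endocytosis recovers the membrane. Trigeminal sensory neurons carry this machinery for glutamate release in the brainstem and for the release of peptides from their nerve endings.

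The transfected agents are small RNAs whose seed, bases 2 to 8 from the 5′ end, pairs with target messages. The mature sequences in RefSeq (GRCm38.p6) are shown because they are the mature forms of the miRNAs named in the labels, with the seed in capitals. The labels do not give the arm, so both arms are shown for miR-324, and the -5p arm, in each case the better known guide strand, for miR-21 and miR-34a.
mmu-miR-21a-5p: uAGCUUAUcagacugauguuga
mmu-miR-34a-5p: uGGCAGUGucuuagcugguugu
mmu-miR-324-5p: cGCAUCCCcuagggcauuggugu
mmu-miR-324-3p: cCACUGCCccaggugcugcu
They lie at chr11:86584120-86584141 (minus strand), chr4:150068473-150068494, chr11:70012060-70012082 and chr11:70012095-70012114 (plus strand) in the order shown. No seed was shared by 2 of these RNAs, and the seeds of miR-34a-5p and miR-324-3p were reverse complements of each other.

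All values below are log2 signals as deposited, so a difference of 1 is a factor of 2, and signals of different probes are not compared. The median of all named probes was 6.03 to 6.24 across the arrays. As a floor, the 95th percentile of 1401 olfactory and vomeronasal receptor probes was 4.86 to 5.80. A total of 6 members were at or under it on at least 1 array: Sv2b, Bsn, Rims2, Unc13a, Amph and Sh3gl2. The labels of miR-34a 1 and 2 and of scramble 1 and 2 carry a common suffix, called suffix A here, and those of miR-324 2 and scramble 3 carry another, suffix B. The remaining 6 arrays carry no suffix, and what the suffixes stand for is not given in the sources used here. The suffix B labels also hold the word mimic, which no other label does. Markers of several cell types were present in the cultures, and their levels differed between arrays of one group. The median of 24 neuronal markers that are not members was 9.22 to 12.84, and it was lowest on miR-324 1 (9.22) and miR-34a 3 (9.34). The median of 11 macrophage markers was 8.64 to 9.20 on the 4 suffix A arrays and 4.09 to 5.44 on the other 8. The median of 9 endothelial markers was 12.23 to 13.95 on miR-34a 3, the 3 miR-324 arrays and scramble 3, and 9.59 to 10.01 on the other 7. Prl, the pituitary hormone prolactin, read 14.26 to 15.17 on the miR-324 arrays and 14.92 on scramble 3, and 3.37 to 4.83 elsewhere.

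The release genes differed between arrays of one group as well as between groups. Their median signal was 9.96, 9.91 and 10.53 on the miR-21 arrays, 10.99, 10.94 and 8.26 on the miR-34a arrays, 8.10, 10.15 and 10.03 on the miR-324 arrays and 10.64, 10.98 and 10.05 on the scramble arrays. The third miR-34a array and the first miR-324 array therefore stood apart as the low ones. Of the 35 members, 17 had their lowest signal on miR-34a 3 and 15 on miR-324 1, and for 25 these were the lowest 2 arrays of the 12, which held for 5.11% of all named probes. Suffix A arrays held the highest signal of 29 members, and for 20 the 4 highest arrays were those 4, against 6.67% of all named probes. The SD over the 12 arrays had a median of 0.97 over the members, with a range of 0.32 for Cplx2 to 1.96 for Syngr3, and a median of 0.40 over all named probes. In bulk RNA, fewer neurons and less of these messages per neuron cannot be told apart.

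**Figure D1:**
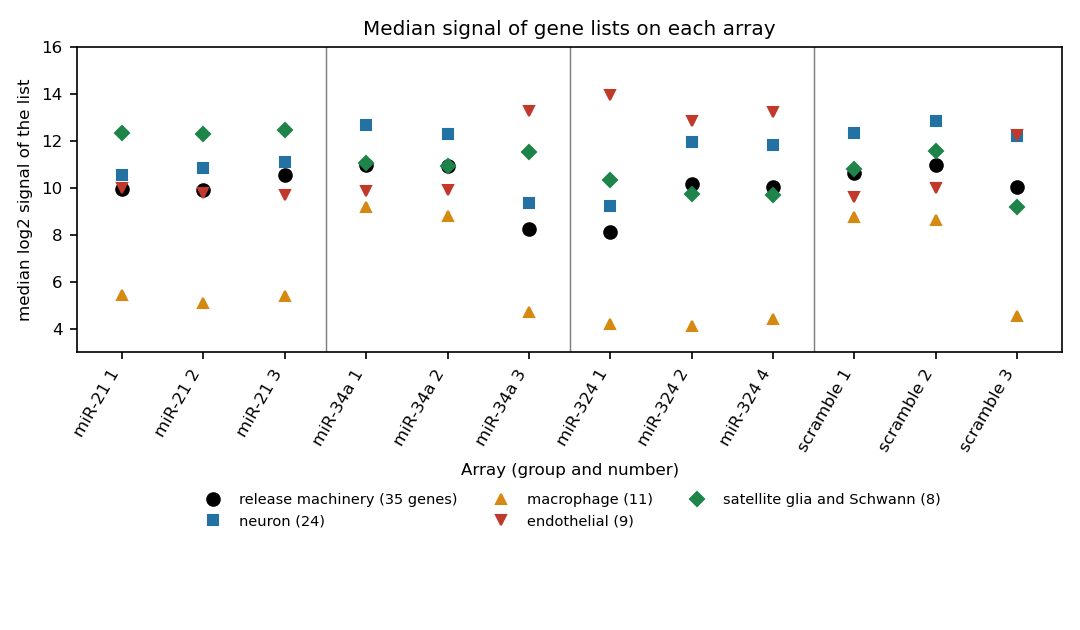
Median log2 signal of the 35 release genes and of marker lists for neurons, macrophages, endothelial cells and satellite glia with Schwann cells on each of the 12 arrays, 1 point per list and array. The release genes were lowest on miR-34a 3 (8.26) and miR-324 1 (8.10), the arrays on which the neuronal markers were also lowest.

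**Figure D2:**
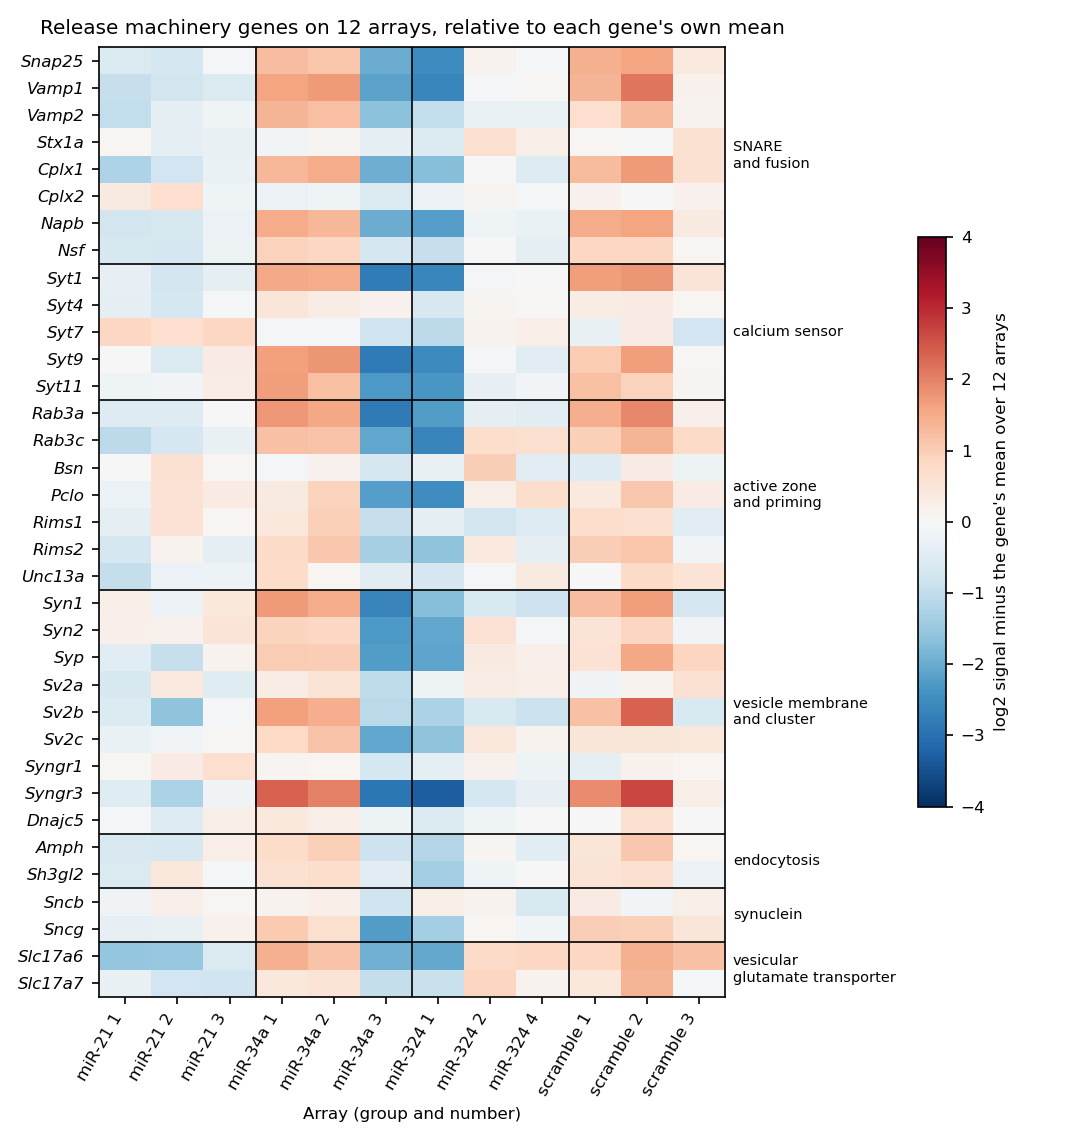
Log2 signal of each of the 35 release genes on each array, shown as the deviation from that gene's mean over the 12 arrays and grouped by role. Most genes were lowest on miR-34a 3 and miR-324 1 and highest on the suffix A arrays, miR-34a 1 and 2 and scramble 1 and 2.

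The first comparison asked how cultures given miR-21 differed from those given scramble. Mean signals were lower after miR-21 for 31 of the 35 members and higher for 4, with 38.3% of all named probes lower. None passed limma's test at an adjusted p under 0.05, where 1.04% of all named probes (204) did, and the members' adjusted p-values were 0.20 to 0.95. At an unadjusted p under 0.05 there were 7 members lower and 1 higher, where 6.08% and 10.6% of all named probes were, and 6 of these 8 also differed at least 2-fold (7.25% of all named probes). This count of 8 rested on single arrays: it was 2 without miR-21 1, 2 without miR-21 2, 3 without scramble 1 and 1 without scramble 2, against 8 without miR-21 3 and 9 without scramble 3. A random block for the label suffix left 1. All 3 miR-21 arrays lay under all 3 scramble arrays for 17 members, against 8.75% of probes, and above them for Syt7 alone, against 16.9%. The median difference over the members was -0.90, and 0.13 over all named probes. The 24 neuronal markers had a median difference of -1.27, with 23 lower in the mean and 0 called. Means were also lower for 11 of 11 macrophage markers (median -1.67) and 9 of 9 endothelial markers (-0.87), and higher for 7 of 8 satellite glia and Schwann cell markers (0.84) and 7 of 7 markers of dividing cells (1.25). Fibroblast markers were mixed, with 5 lower and 2 higher (-0.40). By limma, 1 fibroblast marker (adjusted p = 0.029) and 1 satellite glia and Schwann cell marker (adjusted p = 0.046) were called, both higher. The part of these cell types in the members' values was not tested.

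For miR-34a against scramble, means were lower for 34 of 35 members (44% of all named probes), but the arrays of both groups overlapped for all except Cplx2. No member was called, nor was any other probe (0%), and no member had an unadjusted p under 0.05 in either direction, where 0.547% of probes were lower and 0.915% higher. Cplx2 was lower on all 3 arrays and no member was higher on all 3, where 2.31% and 3.49% of all named probes were. The members' median difference was -0.53, and 0.04 over all named probes. The 24 neuronal markers had a median difference of -0.82, with 24 lower in the mean and 0 called. The members' value rested on 1 array: without miR-34a 3 their median difference was 0.21.

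Against scramble, miR-324 means were lower for 33 of 35 members (41.5% of all named probes). No member passed the test and no probe on the array did (0%), with adjusted p-values of the members between 0.32 and 0.98. A total of 10 members were lower at an unadjusted p under 0.05, against 6.59% of all named probes, and 0 were higher, against 8.11%. Of these, 9 also differed at least 2-fold, where 5.86% of all named probes did in either direction. The miR-324 arrays lay under the scramble arrays without overlap for 15 members (7.3% of probes) and above them for 0 (12.6% of probes). The median difference was -1.11 over the members and 0.09 over all named probes, and it was -1.55 over the neuronal markers, of which 24 of 24 had lower means. Other marker lists moved too: means were lower for 11 of 11 macrophage markers (median -2.73, 8 at an unadjusted p under 0.05), 7 of 7 fibroblast markers (-1.08) and 7 of 7 markers of dividing cells (-1.06), and higher for 9 of 9 endothelial (2.64) and 8 of 8 pituitary markers (0.99). Satellite glia and Schwann cell markers were mixed, with 5 lower and 3 higher (-0.58). Their part in the members' values was not tested. Leaving out miR-324 1 gave a median of -0.64. The 10 members at an unadjusted p under 0.05 became 0 without miR-324 1, 0 without scramble 1, 0 without scramble 2 and 0 with the label suffix as a random block, against 7 without miR-324 4, 11 without miR-324 2 and 14 without scramble 3.

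**Figure D3:**
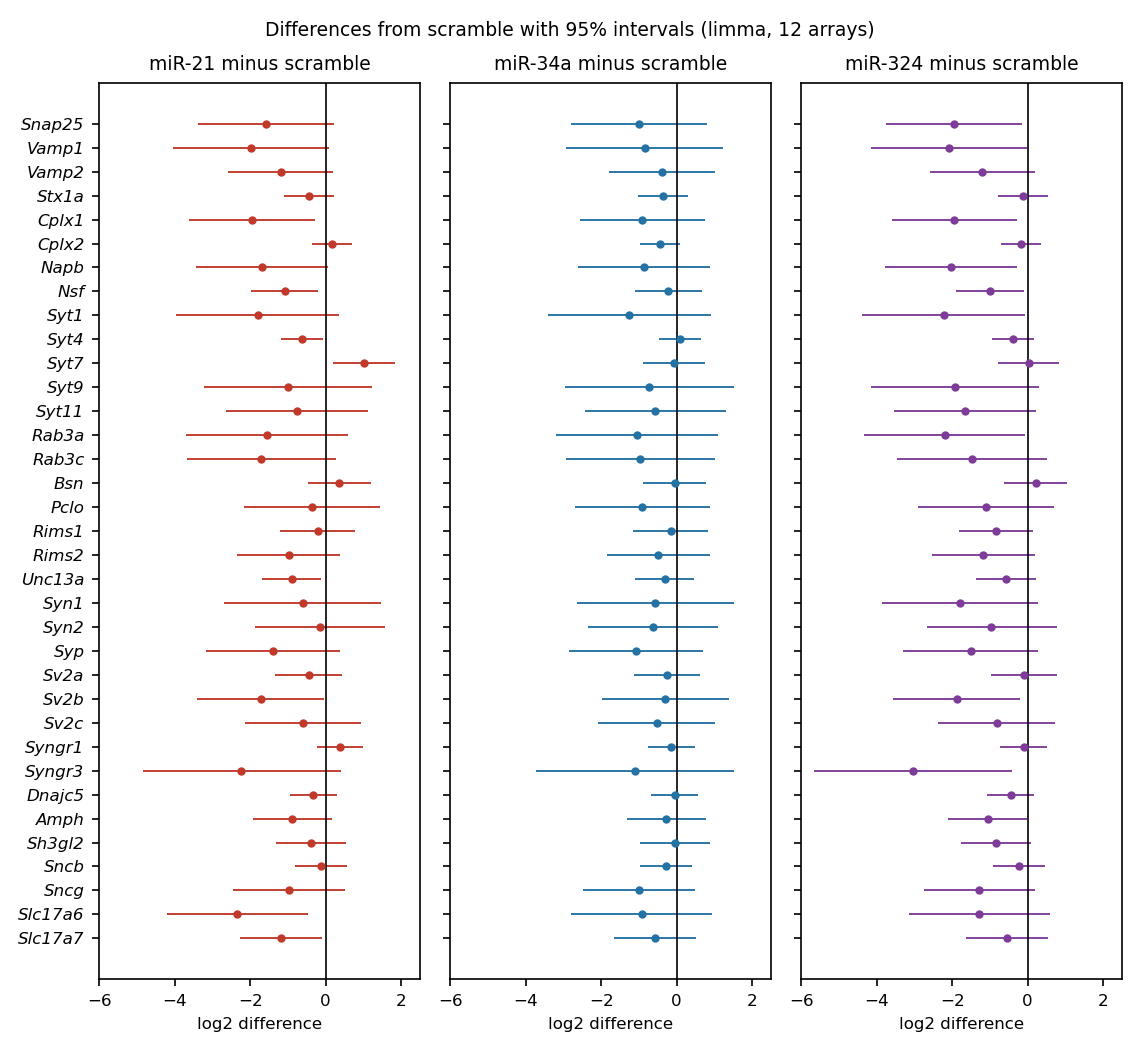
Difference in log2 signal of each release gene, miR-21, miR-34a or miR-324 minus scramble, with its 95% confidence interval from limma (3 arrays per group). Most points lie below 0, and no difference passed the adjusted test.

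Among the 8 genes of the SNARE complex and its helpers, median differences from scramble were -1.38 after miR-21, -0.64 after miR-34a and -1.57 after miR-324. The arrays did not overlap, with the miRNA lower, for 6 of the 8 after miR-21 (8.75% of all named probes), for 1 after miR-34a (2.31%) and for 6 after miR-324 (7.3%). Snap25, the plasma membrane SNARE that botulinum toxin A cleaves, read 14.02, 13.92 and 14.57 after miR-21, 15.85, 15.73 and 12.64 after miR-34a, 12.09, 14.74 and 14.54 after miR-324, and 16.02, 16.20 and 15.00 after scramble. All miR-21 and all miR-324 arrays were under the lowest scramble array, while miR-34a 1 and 2 were near scramble 1 and 2. The differences were -1.57 ± 0.83 for miR-21 (SE, adjusted p = 0.36), -1.0 ± 0.83 for miR-34a (adjusted p = 1) and -1.95 ± 0.83 for miR-324 (adjusted p = 0.32). Vamp2, the main vesicle SNARE of the brain, read 11.54, 12.16 and 12.35 after miR-21, 13.86, 13.73 and 10.88 after miR-34a, 11.52, 12.25 and 12.25 after miR-324, and 13.17, 13.80 and 12.65 after scramble. Its miR-21 and miR-324 values were again under every scramble value, with differences of -1.19 ± 0.64 (adjusted p = 0.37) and -1.20 ± 0.64 (adjusted p = 0.39).

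Cplx1, a complexin of fast synapses, read 9.77, 10.24 and 10.73 after miR-21, 12.33, 12.49 and 9.03 after miR-34a, 9.30, 10.99 and 10.48 after miR-324, and 12.26, 12.71 and 11.62 after scramble. It was lower without overlap after miR-21 (-1.95 ± 0.76, adjusted p = 0.23) and after miR-324 (-1.94 ± 0.76, adjusted p = 0.32). Its relative Cplx2 behaved otherwise, with 6.80, 7.11 and 6.26 after miR-21, 6.22, 6.27 and 5.88 after miR-34a, 6.21, 6.55 and 6.40 after miR-324, and 6.62, 6.42 and 6.63 after scramble. It was the only member whose 3 miR-34a arrays were all under scramble, by 0.43 on the log2 scale (SE 0.24, adjusted p = 1).

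Napb and Nsf belong to the step that takes spent SNARE complexes apart, Nsf as the ATPase that works in every cell and Napb as its brain adaptor beta-SNAP. Napb read 12.54, 12.64 and 13.04 after miR-21, 14.76, 14.61 and 11.28 after miR-34a, 11.08, 13.10 and 13.00 after miR-324, and 14.77, 14.86 and 13.64 after scramble. Nsf read 10.79, 10.78 and 11.23 after miR-21, 12.36, 12.25 and 10.76 after miR-34a, 10.50, 11.45 and 11.09 after miR-324, and 12.25, 12.26 and 11.52 after scramble. For both genes every miR-21 and miR-324 array was under every scramble array. Napb differed by -1.68 ± 0.81 after miR-21 (adjusted p = 0.31) and by -2.03 ± 0.81 after miR-324 (adjusted p = 0.32), and Nsf by -1.08 ± 0.41 (adjusted p = 0.22) and -1.0 ± 0.41 (adjusted p = 0.32). Vamp1, the vesicle SNARE prominent in spinal and brainstem neurons, had group means of 10.22 ± 0.18 after miR-21, 11.35 ± 2.18 after miR-34a, 10.10 ± 1.51 after miR-324 and 12.20 ± 0.99 after scramble (SD, n = 3 each). Stx1a, the syntaxin of the complex, had means of 7.00 ± 0.24, 7.09 ± 0.23 and 7.32 ± 0.60 after miR-21, miR-34a and miR-324, and 7.44 ± 0.33 after scramble, and overlapping arrays throughout.

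The 5 synaptotagmins did not share a pattern. Median differences from scramble were -0.75, -0.56 and -1.67 after miR-21, miR-34a and miR-324. Syt1, the calcium sensor of fast release, read 11.29, 10.90 and 11.25 after miR-21, 13.14, 13.10 and 8.83 after miR-34a, 9.03, 11.55 and 11.60 after miR-324, and 13.31, 13.39 and 12.15 after scramble. The miR-21 and miR-324 arrays were below all scramble arrays, with differences of -1.80 ± 0.99 (adjusted p = 0.38) and -2.22 ± 0.99 (adjusted p = 0.33). The difference for miR-34a was -1.26 ± 0.99 (adjusted p = 1), and miR-34a 3 was far below the other two arrays of its group. Syt9, another fast calcium sensor, and Syt11, which binds little calcium, had all 3 miR-324 arrays under scramble (-1.92 ± 1.03 and -1.67 ± 0.86, adjusted p = 0.39 and 0.38) and overlapping miR-21 arrays.

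Syt7, a high-affinity sensor tied to slow and asynchronous release and to lysosome exocytosis, was the one member above scramble on every miR-21 array. It read 9.99, 9.83 and 10.00 after miR-21, 9.09, 9.07 and 8.36 after miR-34a, 8.10, 9.31 and 9.42 after miR-324, and 8.85, 9.50 and 8.40 after scramble. The miR-21 difference was 1.02 ± 0.38 (95% interval 0.21 to 1.84, adjusted p = 0.20), and the differences after miR-34a and miR-324 were -0.08 ± 0.38 and 0.03 ± 0.38. Relative to the median of the neuronal markers on the same array, Syt7 lay at -0.88 ± 0.29 on the miR-21 arrays and at -3.55 ± 0.23 on the scramble arrays (SD, n = 3 each), a difference of 2.66 ± 1.08 in that scaling (limma's adjusted p = 0.20). The SE of 1.08 was the same for every member in that fit and is not the spread of Syt7 itself. The satellite glia and Schwann cell markers, which are not neuronal, also stood higher on the miR-21 arrays, with medians of 12.35, 12.29 and 12.48 against 10.80, 11.56 and 9.20 on the scramble arrays, and their part in the Syt7 value was not tested.

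Syt4, a synaptotagmin of dense-core vesicles that binds calcium poorly, was picked out after its values were seen, as it was hardly lower on miR-34a 3. It read 14.62, 14.32 and 14.93 after miR-21, 15.51, 15.31 and 15.20 after miR-34a, 14.38, 15.13 and 15.08 after miR-324, and 15.32, 15.34 and 15.09 after scramble. On miR-34a 3, where Syt1 read 8.83, Syt4 was within the scramble range. Its miR-21 arrays were all under scramble (-0.63 ± 0.25, adjusted p = 0.24).

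**Figure D4:**
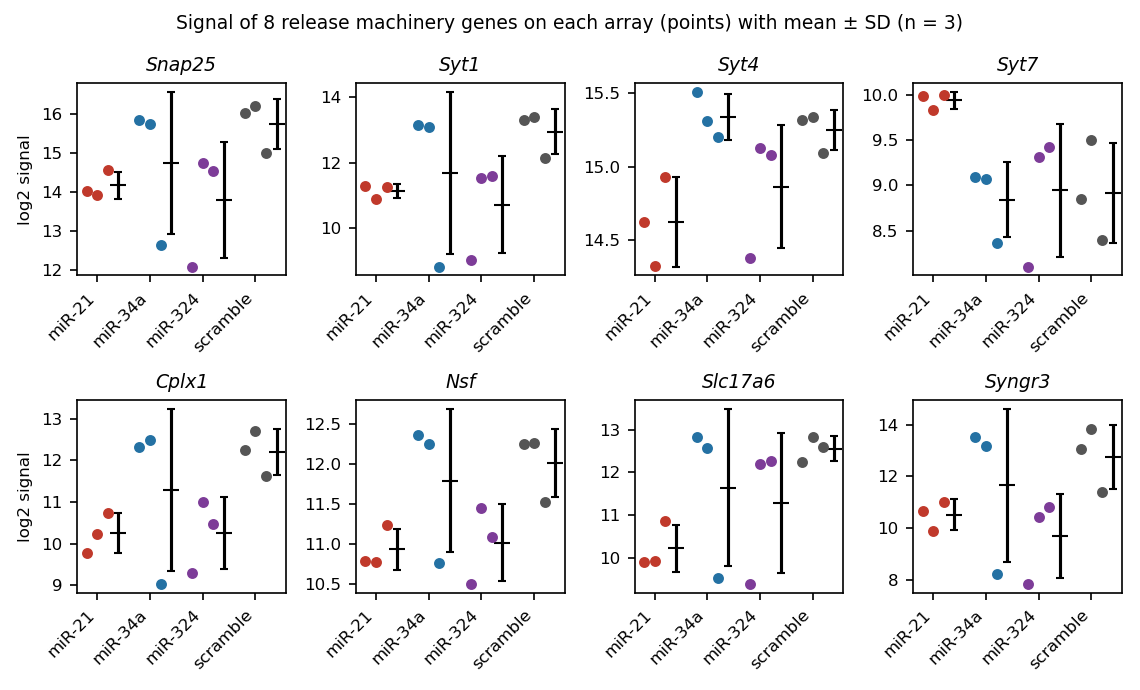
Log2 signal of 8 release genes, with 1 point per array and, beside the points, the group mean with a bar of 1 SD (n = 3). All except Syt4 were lowest on miR-34a 3 or miR-324 1, and Syt7 was highest on the miR-21 arrays (9.83 to 10.00).

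Of the 9 proteins of the vesicle membrane and the vesicle cluster, 8 had lower means after miR-21 and 9 after each of miR-34a and miR-324, with median differences of -0.59, -0.53 and -0.96. Syn1, the synapsin that tethers vesicles into the reserve pool, read 12.11, 11.62 and 12.27 after miR-21, 13.57, 13.35 and 9.18 after miR-34a, 10.16, 11.25 and 11.02 after miR-324, and 13.09, 13.54 and 11.18 after scramble. Scramble itself spanned more than the distance between the group means, and the differences were -0.60 ± 0.96, -0.57 ± 0.96 and -1.79 ± 0.96 (adjusted p = 0.78, 1 and 0.38). Syp, synaptophysin, the most used marker of synaptic vesicles, read 12.99, 12.49 and 13.56 after miR-21, 14.44, 14.40 and 11.17 after miR-34a, 11.31, 13.76 and 13.61 after miR-324, and 13.99, 14.95 and 14.28 after scramble. Its miR-21 and miR-324 arrays were all below scramble, with differences of -1.39 ± 0.82 (adjusted p = 0.41) and -1.51 ± 0.82 (adjusted p = 0.39).

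Syngr3, a synaptogyrin of the vesicle membrane, had the widest spread of all members and the lowest difference after miR-324. It read 10.67, 9.89 and 11.03 after miR-21, 13.53, 13.17 and 8.26 after miR-34a, 7.86, 10.45 and 10.84 after miR-324, and 13.04, 13.83 and 11.40 after scramble. The miR-324 difference was -3.04 ± 1.21 (95% interval -5.67 to -0.41, adjusted p = 0.32) and the miR-21 difference -2.23 ± 1.21 (adjusted p = 0.37), both without overlap of the arrays. Within scramble, Syngr3 was highest on the 2 suffix A arrays. Its relative Syngr1 had means of 10.25 ± 0.31, 9.74 ± 0.46 and 9.77 ± 0.29 after miR-21, miR-34a and miR-324, and 9.87 ± 0.28 after scramble, with arrays that overlapped in each comparison. Sv2b, a glycoprotein of the vesicle membrane, had an unadjusted p of 0.047 after miR-21 (-1.71 ± 0.78) and 0.032 after miR-324 (-1.88 ± 0.78), with arrays that overlapped in both. Sv2c had scramble arrays within 0.02 (SD) of a mean of 11.64 and lay under them on all miR-21 arrays (-0.59 ± 0.71) and all miR-324 arrays (-0.82 ± 0.71), with intervals that reached 0.95 and 0.72. Sv2a, Syn2 and Dnajc5, the last a chaperone of the vesicle, had overlapping arrays in all 3 comparisons and differences of -0.96 to -0.05.

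Promoter sequence was available in RefSeq for 28 of the 35 members, as 35 windows of 300 bases from 250 bases before to 50 after the start site; Dnajc5, Rims2, Snap25, Syngr3, Syt4, Syt7 and Vamp2 were not matched. The windows held a median of 17 CG dinucleotides, and 7 over all 32851 windows of the table. GGGCGG, the GC box, occurred on either strand in 22 of the 35 windows (62.9%, against 35.7% of all), CCAAT in 6 (17.1% against 37.4%), TATAAA in 2 (5.71% against 13.6%) and the NRF1 palindrome in 1 (2.86% against 0.971%). Both windows with TATAAA were of Sv2b. TGACGTCA, the full cAMP response element, occurred in 2 (5.71% against 1.79%). TTCAGCACC, the left arm of the element bound by the neuronal repressor REST, also occurred in 2 (5.71% against 0.371%). Occurrences of different motifs overlapped in 0 of the 35 windows, and a match is a description of the letters only. The 3 promoters that hold these last 2 motifs are shown, with the motif in capitals, for Syn1 (chrX:20920869-20921168, minus strand), Unc13a (chr8:71671708-71672007, minus strand) and Sh3gl2 (chr4:85205206-85205505, plus strand), all GRCm38.p6.
Syn1: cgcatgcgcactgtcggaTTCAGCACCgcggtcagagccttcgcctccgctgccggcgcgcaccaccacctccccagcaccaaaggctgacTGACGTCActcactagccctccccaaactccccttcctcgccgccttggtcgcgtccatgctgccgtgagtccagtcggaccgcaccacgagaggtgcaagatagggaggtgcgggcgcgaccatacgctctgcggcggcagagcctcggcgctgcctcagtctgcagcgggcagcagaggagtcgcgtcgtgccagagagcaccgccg
Unc13a: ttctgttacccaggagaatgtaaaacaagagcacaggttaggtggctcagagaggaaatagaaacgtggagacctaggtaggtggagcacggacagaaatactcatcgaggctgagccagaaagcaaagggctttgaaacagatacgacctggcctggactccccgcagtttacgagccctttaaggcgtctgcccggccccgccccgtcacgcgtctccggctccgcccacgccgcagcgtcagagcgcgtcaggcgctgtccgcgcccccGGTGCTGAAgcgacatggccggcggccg
Sh3gl2: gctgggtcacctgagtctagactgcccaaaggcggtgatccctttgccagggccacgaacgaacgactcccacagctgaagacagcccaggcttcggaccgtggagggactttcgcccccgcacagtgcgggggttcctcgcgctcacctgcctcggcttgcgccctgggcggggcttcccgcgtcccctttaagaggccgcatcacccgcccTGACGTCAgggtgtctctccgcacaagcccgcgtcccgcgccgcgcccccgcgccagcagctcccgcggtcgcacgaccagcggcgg
In Syn1 the REST element's left arm began 232 bases and the cAMP element 159 bases upstream of the start, and in Sh3gl2 the cAMP element began 37 bases upstream. In Unc13a that arm lay after the start and was on the opposite strand.

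The 7 genes of the active zone and of vesicle priming had median differences of -0.90, -0.49 and -1.11 after miR-21, miR-34a and miR-324. Arrays lay under scramble without overlap for 3 of them after miR-21 (Rab3a, Rab3c and Unc13a; 8.75% of all named probes), for 0 after miR-34a (2.31%) and for 2 after miR-324 (Rab3a and Rab3c; 7.3%). Rab3a and Rab3c are GTPases that bring vesicles to the release site. Rab3a had means of 10.17 ± 0.31, 10.67 ± 2.59 and 9.51 ± 1.06 after miR-21, miR-34a and miR-324, and 11.72 ± 0.89 after scramble. Rab3c, named after its values were seen, had means of 8.63 ± 0.38, 9.37 ± 1.86 and 8.85 ± 1.92, and 10.32 ± 0.31 after scramble. Unc13a, the priming factor Munc13-1, differed by -0.90 ± 0.36 after miR-21 (adjusted p = 0.24). Its signal on miR-21 1 (5.12) was under the floor of that array (5.33), which limits the size of that difference. The scaffolds Bsn (bassoon) and Pclo (piccolo) and the scaffold genes Rims1 and Rims2 had overlapping arrays in all 3 comparisons. Bsn, the only one of the 7 with a higher mean in any of these comparisons, differed by 0.36 ± 0.38 after miR-21 and 0.21 ± 0.38 after miR-324. It was at or under the floor on 2 arrays.

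Sncg, the synuclein abundant in peripheral sensory neurons, read 14.29, 14.32 and 14.79 after miR-21, 15.66, 15.25 and 12.37 after miR-34a, 13.25, 14.71 and 14.50 after miR-324, and 15.60, 15.58 and 15.11 after scramble. It lay under scramble on every miR-21 array (-0.96 ± 0.68, adjusted p = 0.50) and every miR-324 array (-1.28 ± 0.68, adjusted p = 0.38), and miR-34a gave -1.0 ± 0.68 (adjusted p = 1) with overlap. Sncb, a synuclein of brain synapses, overlapped throughout, with differences of -0.29 to -0.11. The endocytosis genes Amph (amphiphysin) and Sh3gl2 (endophilin A1) also overlapped in all comparisons, Amph with -0.88 ± 0.48, -0.27 ± 0.48 and -1.06 ± 0.48 and Sh3gl2 with -0.39 ± 0.43, -0.04 ± 0.43 and -0.83 ± 0.43 after miR-21, miR-34a and miR-324.

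The vesicular glutamate transporters fill the vesicles, and Slc17a6 (VGLUT2) is the form carried by most sensory neurons. Slc17a6 read 9.89, 9.91 and 10.86 after miR-21, 12.84, 12.57 and 9.51 after miR-34a, 9.38, 12.20 and 12.26 after miR-324, and 12.25, 12.84 and 12.59 after scramble. The miR-21 arrays were all below the scramble arrays, whereas miR-34a 1 and 2 and miR-324 2 and 4 were close to them. The miR-21 difference of -2.34 ± 0.86 (95% interval -4.21 to -0.47, adjusted p = 0.20) was the lowest of any member in that comparison. The other differences were -0.92 ± 0.86 for miR-34a (adjusted p = 1) and -1.28 ± 0.86 for miR-324 (adjusted p = 0.48). Set against the median of the neuronal markers on the same array, Slc17a6 lay at -0.65, -0.92 and -0.25 on the miR-21 arrays, at 0.16, 0.26 and 0.17 on the miR-34a arrays, at 0.16, 0.25 and 0.44 on the miR-324 arrays, and at -0.10, 0.00 and 0.39 on the scramble arrays. In that scaling the low values of miR-34a 3 and miR-324 1 were gone, and the miR-21 arrays were the 3 lowest, but the miR-21 difference shrank to -0.70. Its SE was 1.08 (limma's adjusted p = 0.54). That SE was the same for every member in the scaled fit, so it is not the spread of Slc17a6 itself. The SDs of Slc17a6 were 0.34 on the miR-21 arrays and 0.26 on the scramble arrays. Slc17a7 (VGLUT1) read 6.66, 6.20 and 6.16 after miR-21, 7.36, 7.51 and 5.99 after miR-34a, 6.07, 7.80 and 7.09 after miR-324, and 7.39, 8.31 and 6.90 after scramble. Its miR-21 arrays were also all under scramble (-1.19 ± 0.50, adjusted p = 0.26), and the other groups overlapped scramble (-0.58 ± 0.50 and -0.55 ± 0.50).

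Scaling to the neuronal markers narrowed most but not all members. The SD over the 12 arrays was smaller in that scaling for 22 of the 35, with a median of 0.67 and a range of 0.19 to 1.23. Rab3c kept nearly a fixed distance to the markers, with an SD of 0.19 against 1.34 for its signal, followed by Syp at 0.28 against 1.21 and Snap25 at 0.32 against 1.30. Syt7 (1.23 against 0.64) and Cplx2 (1.20 against 0.32) varied more after scaling. Syn2, a second synapsin named after its values were seen, lay at -0.43 ± 0.17 on the miR-21 arrays, -1.53 ± 0.16 on the miR-34a arrays, -1.41 ± 0.33 on the miR-324 arrays and -1.93 ± 0.25 on the scramble arrays. With this scaling the members' median differences were 0.74, 0.49 and 0.36 for miR-21, miR-34a and miR-324 against scramble, so the sign of each median turned, and 0 members were called. The scaling shifts every gene of an array by the same amount, also a gene that had hardly moved. For miR-21 against scramble, Cplx2 went from 0.17 to 1.80. That fit gave every member the same SE of 1.08, so its p-values do not reflect each gene's own spread. The medians below 0 given above hold for the deposited scale.

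Inside 1 label suffix the members' median differences were nearer to 0. Within suffix A, miR-34a 1 and 2 minus scramble 1 and 2 had a median of 0.00 over the members (-0.41 for Slc17a7 to 0.47 for Sv2c), with 16 higher, 17 lower and 2 equal to 2 decimals (Rims1 and Unc13a). No member was called there (0% of all named probes), 0 had an unadjusted p under 0.05 (3.89%) and 0 differed 2-fold (0.307%). Arrays did not overlap for 2 higher members, Sv2a and Sv2c (14.3% of probes), and for 4 lower ones, Snap25, Syt1, Cplx2 and Napb (15.7% of probes). Syt1 and Stx1a have been reported in mouse neurons as targets of miR-34a. In this pair of groups Syt1 averaged 13.12 on the miR-34a arrays and 13.35 on the scramble arrays, a difference of -0.23 (95% interval -0.72 to 0.26), and Stx1a averaged 7.22 and 7.26, a difference of -0.04 (95% interval -0.54 to 0.46). Within suffix B there was 1 array a side and no test, and miR-324 2 minus scramble 3 had a median of -0.12, with 11 higher, 23 lower and 1 equal. There Syngr3 was lowest (-0.95), Syt7 differed by 0.91 and Slc17a7 by 0.90, and Bsn, at 6.93 on miR-324 2 and 5.76 on scramble 3, was the 1 member past 2-fold, where 5.08% of all named probes were. All 3 miR-21 arrays carry no suffix and all 3 scramble arrays do, so in that comparison miRNA and suffix cannot be told apart without the arrays of other groups.

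**Figure D5:**
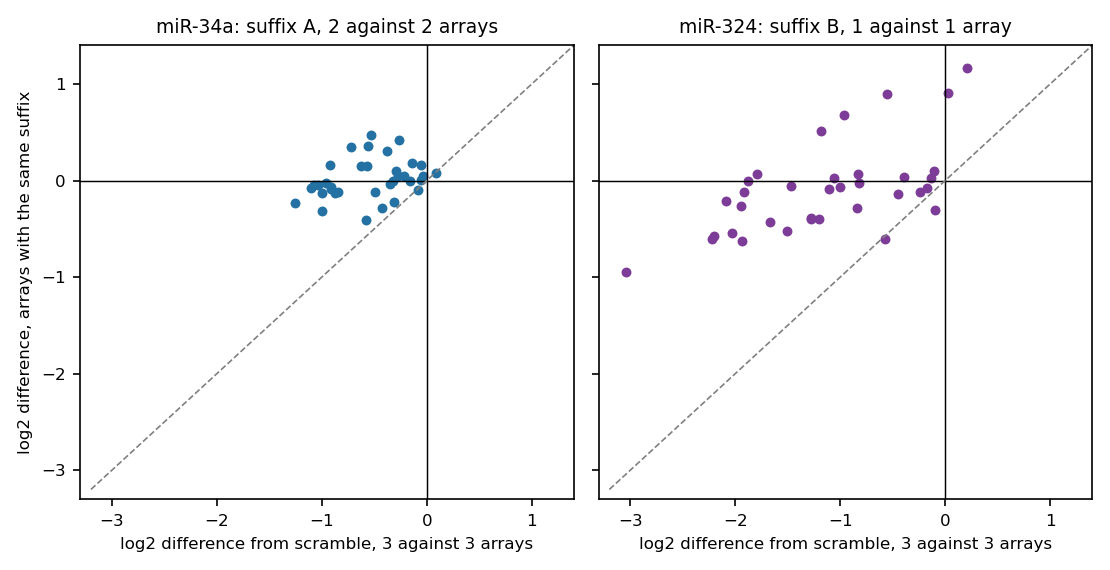
Log2 difference from scramble of each release gene over all 3 against 3 arrays (horizontal axis) and among arrays of one label suffix (vertical axis), for miR-34a in suffix A (2 against 2) and miR-324 in suffix B (1 against 1), with a dashed line where both are equal. On the vertical axis, suffix A points lie between -0.41 and 0.47, and suffix B points between -0.95 and 1.17.

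Arrays of 1 group could differ by more than the group means did. On miR-34a 3, all 35 members were lower than the mean of miR-34a 1 and 2, by a median of -2.84 (-5.09 to -0.21), and 27 differed at least 2-fold (77.1%, against 18.5% of all named probes). On miR-324 1, 33 were lower than the mean of miR-324 2 and 4, by a median of -1.36, and 20 differed at least 2-fold (57.1% against 11.9%). On scramble 3, 28 were lower than the mean of scramble 1 and 2, with a median of -0.78, and 11 differed at least 2-fold (31.4% against 12.5%).

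The calls depended on which arrays set the spread. In an alternative chosen after the data were seen, miR-34a 3 and miR-324 1, which are in neither group of the miR-21 comparison, were left out. Then 14 members passed for miR-21 against scramble, where 8.27% of all named probes did. The 13 lower ones were Snap25, Syt1, Syp, Vamp1, Vamp2, Rab3a, Rab3c, Cplx1, Sncg, Napb, Nsf, Syngr3 and Slc17a6 (Slc17a6 -2.34 ± 0.28, adjusted p = 0.00079), and Syt7 was higher (1.02 ± 0.26, adjusted p = 0.035). A fit on the 6 miR-21 and scramble arrays alone called 7, all lower (Snap25, Syt1, Vamp1, Rab3c, Cplx1, Napb and Slc17a6; 4.63%). Weighting arrays by their fit called 14 (1 higher, 13 lower; 12.2%), and for miR-324 against scramble it called 10, all lower (13.2%). With the suffix as a fixed block, a term that rests on the miR-34a and miR-324 groups, whose arrays without a suffix include both low arrays, 2 members were called for miR-21, both higher, Syn1 (2.30, adjusted p = 0.013) and Syn2 (3.49% of all named probes). The members' median differences for miR-21, miR-34a and miR-324 against scramble were then 0.84, -0.17 and 0.26, and with the suffix as a random block -0.19, -0.34 and -0.51 with 0 called.

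Between the miRNAs, 0 members were called in any of the 3 comparisons. For miR-21 against miR-34a (0.158% of all named probes called) 3 members had an unadjusted p under 0.05 (11.3%), namely Syt7 at 1.10 and Cplx2 at 0.60 higher and Syt4 at -0.72 lower, with adjusted p-values of 0.32, 0.39 and 0.34, and Syt7 alone also differed 2-fold (3.71%). For miR-21 against miR-324 (2.46%) it was Syt7 alone, at 1.00 (adjusted p = 0.23; 14.7%). For miR-34a against miR-324 (0%) it was 0 members (13%), with adjusted p-values of at least 0.41. The median differences were -0.35, 0.20 and 0.51. Here too the low arrays counted. Without miR-34a 3, miR-21 against miR-34a called 3 members, Vamp2, Cplx1 and Nsf, all lower (2.74%), and miR-34a against miR-324 called 9, all higher (4.09%). Without both low arrays, miR-21 against miR-34a called 15, all lower (5.99%), miR-21 against miR-324 called Rab3c and Slc17a6, both lower (6.38%), and miR-34a against miR-324 called 0 members and 0 probes (smallest adjusted p of a member 0.081). Array weights called 10 for miR-21 against miR-34a (11%) and 13 for miR-34a against miR-324 (14.3%). The suffix block called 5 for miR-21 against miR-34a, all higher (5.13%), and Syn1 for miR-21 against miR-324, also higher (6.92%).

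A wider list of 60 release genes holding no member, isoforms and partners such as other synaptotagmins, VAMPs, syntaxins and dynamins, had 56 measured. None was called in any comparison, and the median differences from scramble were -0.19, -0.14 and -0.24 for miR-21, miR-34a and miR-324, nearer to 0 than the members' own. The list also held genes under the floor on every array, such as Doc2a (highest signal 3.51), Slc18a3 (2.76) and Slc32a1 (4.13), which limits that median. After miR-21, means were lower for 34 and higher for 21 of the 56. Brighter genes among the lower ones were Snap91 (-1.55), Atp6v1g2 (-1.45) and Cadps (-1.19), and Vamp8 was the highest (1.02). At an unadjusted p under 0.05 there were 4 higher and 5 lower after miR-21, where 10.6% and 6.08% of all named probes were, so these counts were near the background. There were 0 higher and 1 lower after miR-34a (0.915% and 0.547%), and 4 higher and 9 lower after miR-324 (8.11% and 6.59%). The smallest adjusted p was that of Napa, the alpha-SNAP adaptor of Nsf that is used in all tissues, with 12.58 ± 0.26 after miR-21 and 13.81 ± 0.20 after scramble (SD, n = 3 each), a difference of -1.23 ± 0.33 (adjusted p = 0.092).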

How the data were processed

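Total RNA of the cultures was read on 12 Clariom S Mouse arrays. The authors deposited 1 log2 signal per probe and array, and per the submitters' processing notes the tools were Transcriptome Analysis Console 4.0 and RMA; background correction and probe-level settings are not given in the sources used here. Of 22206 probes, 19572 had 1 gene symbol in the table of platform annotation used here, 0 had several, and the other 2634 are unnamed here. For 55 symbols with several probes the brightest was used, and no member was among them. Arrays were grouped by their titles. The array called scramble 3 carries replicate number 1 in its title, as scramble 1 does, and takes its 3 from the running number of the arrays. No 2 arrays held identical values.

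The deposited values of all named probes were fitted with limma 3.58.1 (lmFit, contrasts and eBayes, R 4.3.3), with all 12 arrays sharing 1 estimate of the spread and 8 residual degrees of freedom, and two-sided p-values were adjusted over the 19572 probes by Benjamini-Hochberg. A gene was called at an adjusted p under 0.05. The number of arrays, 3 a group, limits the precision. The pipeline was tested on simulated data with independent noise for each probe and array. That simulation held no shift shared by many genes of an array, so it does not show how such shifts act on the calls. The members and gene lists were chosen with earlier results of these data known. Members given array by array were Snap25, Syt1, Vamp2, Syn1, Slc17a6 and Slc17a7, plus those called or, where fewer than 4 passed, the 4 with the smallest p in each comparison with scramble, and Syt4, added after its values were seen. Alternatives changed the normalization, centring, filter, variance prior, array weights, arrays in the fit, blocks and threshold. Sequences were read from RefSeq tables (GRCm38.p6), and the build behind the array's annotation is not given in the sources used here.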

Additional observations from a re-analysis of the deposited data

How the results depend on the processing

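For miR-21 against scramble, 0 members were called as deposited. Array weights gave 14, the 2 groups alone 7, the label suffix as a fixed block 2, leaving out miR-34a 3 and miR-324 1 (chosen after seeing the data) 14, and an unadjusted p under 0.05 with a 2-fold difference 6. For miR-324 against scramble, array weights gave 10 and that unadjusted rule 9. For miR-34a against scramble every alternative gave 0. For miR-21 against miR-34a the counts were 10 with weights, 5 with the suffix block, 15 without both low arrays, 1 by the unadjusted rule and 0 to 3 leaving out 1 array each. For miR-21 against miR-324 they were 1 with the suffix block and 2 without both low arrays, and for miR-34a against miR-324 13 with weights and 0 to 9 leaving out 1 array each. In the other comparisons leaving out 1 array gave 0. The members' median differences from scramble, by miRNA, moved to 0.74 (miR-21), 0.49 (miR-34a) and 0.36 (miR-324) when arrays were centred on the median of the neuronal markers. That centring shifts all genes of an array by the same amount, whether or not they moved with the markers. The members' medians moved to 0.84 (miR-21) and 0.26 (miR-324) with the suffix as a fixed block. Leaving out 1 array each gave -1.12 to -0.65 for miR-21, -0.94 to 0.21 for miR-34a and -1.49 to -0.64 for miR-324. Syn1 turned to 2.30 for miR-21 against scramble with the suffix block. Where no cause is given, the cause was not tested. As a random block (correlation 0.28) the suffix gave 0 calls in every comparison. Whether the numbers pair arrays could not be told: 4 of 15 same-number pairs had a correlation of deviations over 0.1 (range -0.41 to 0.47), 3 of them the miR-34a and scramble pairs (0.31, 0.36 and 0.47). The third of these rests on the number 3 given here to scramble 3, whose own label says 1. In both miR-34a and scramble, arrays 1 and 2 carry suffix A and array 3 does not, so number and suffix cannot be told apart there. Pairs with unlike numbers were not computed. The replicate block gave 0 calls, with medians of -0.90, -0.53 and -1.65 for miR-21, miR-34a and miR-324. With scramble 3 numbered 1, chosen after seeing the data, 3 of 16 pairs were over 0.1 (-0.41 to 0.36), and the block gave 0 calls and medians of -0.68 (miR-21), -0.25 (miR-34a) and -1.41 (miR-324). Members at an unadjusted p under 0.05 for miR-324 against scramble numbered 21 with the first block and 13 with the second, against 10 without a block, and for miR-21 9 and 4, against 8. Over the 15 genes given array by array, 870 values under alternatives were computed, of which 745 kept sign and call, 91 turned sign without a call and 34 were called. Signals at the floor limit what those arrays show. They were found on miR-324 1 for 5 members, on miR-34a 3 for 2, and on miR-21 1 and miR-21 2 for 1 each.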
